A study of Homo sapiens with 8 samples.

Results

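The regions described here are the p53 ChIP-seq peaks of human chromosomes 13 and 18, the 2 autosomes with the fewest protein-coding genes per sequenced megabase. Members were all peaks of the 4 deposited peak lists on these chromosomes, leaving out the first and last 500 kb of each chromosome in build hg19. They numbered 1972 of the 97582 peaks in the 4 lists together, and 32 further peaks were left out by the end margin. Chromosome 13 gave 493 and 173 peaks in Dox replicates 1 and 2, against 146 and 289 peaks in PBS replicates 1 and 2. Chromosome 18 gave 407 and 147 peaks in Dox replicates 1 and 2, against 82 and 235 peaks in PBS replicates 1 and 2. Merged wherever they shared at least 1 bp, the peaks of the 4 lists formed 741 sites on chromosome 13 and 631 on chromosome 18, against 58990 sites on the other 20 autosomes.

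Chromatin immunoprecipitation with an antibody against p53 (clone 1C12) had been carried out on 293T cells, an aneuploid line from human embryonic kidney that expresses the large T antigen of simian virus, which binds p53. The cells had been kept for 24 h with 0.5 µg/ml of doxorubicin (Dox) or with phosphate-buffered saline as the vehicle (PBS), with 2 ChIP libraries per condition. Replicate 1 came from passage 3 and replicate 2 from passage 5 in both conditions, so replicate number and passage cannot be told apart, and the sources used here do not say whether cultures were shared. Input DNA was not analysed here.

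p53 is a transcription factor that binds DNA as a tetramer and, after DNA damage, switches on genes of cell cycle arrest, DNA repair and cell death. Doxorubicin is a topoisomerase poison that breaks DNA and is widely used to activate p53. Gene-poor chromosomes are largely late-replicating, compact chromatin, and chromosome 18 is known for its place near the nuclear edge, whereas gene-dense chromosome 19 lies towards the centre of the nucleus. The study compared where p53 peaks were called with and without doxorubicin. The lists were called at p under 0.05 with no limit on q, so a listed peak is not by itself evidence of bound p53.

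Facts of the whole series that touch these chromosomes are few. With 46658 and 16642 peaks in the Dox lists (replicates 1 and 2), against 11304 and 22978 in the PBS lists, list length differed more between the libraries of a condition than between the conditions. Read depth is not given in the lists. Fold enrichments are the authors' own values over the local background and are read within 1 list only. Positions are on hg19, and no gene is named at a site because no annotation of that build was used here.

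The end margin was met by few peaks. On chromosome 18 the first peak kept, 496 bp wide with a fold of 3.17 in Dox replicate 1, was at chr18:657841-658336, and the nearest one left out was at chr18:496949-497164 in PBS replicate 2, 216 bp wide with a fold of 2.80. At the far end the last peak kept was at chr18:77557455-77557713 in Dox replicate 2 (259 bp, fold 3.11), and the nearest one left out was at chr18:77588510-77589237 in Dox replicate 1 (728 bp, fold 3.06). On chromosome 13 the last peak kept was at chr13:114561275-114561477 in Dox replicate 2 (203 bp, fold 2.46), and the nearest one left out was at chr13:114753734-114754261 in Dox replicate 1 (528 bp, fold 2.32). The short arm of chromosome 13 is not sequenced in hg19, and its first peak, at chr13:19648801-19649007 (207 bp, fold 2.47, Dox replicate 1), lay far from the margin, so nothing was left out at that end.

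Peaks were sparse on both chromosomes in every library. Density per megabase of sequenced bases on chromosomes 13 and 18 was 5.33 and 1.90 peaks in Dox replicates 1 and 2, against 1.35 and 3.11 in PBS replicates 1 and 2. The other autosomes had 17.4 and 6.17 peaks per megabase in Dox replicates 1 and 2, against 4.18 and 8.44 in PBS replicates 1 and 2. The ratio of the densities was 0.307 and 0.307 in the Dox libraries, against 0.323 and 0.368 in the PBS libraries. Its mean was 0.326 ± 0.029 (SD, n = 4 libraries), and it was below 1 in 4 of 4. In a two-sided exact sign-flip test on the log2 ratio (mean -1.62 ± 0.12) p was 0.13, the smallest that 4 libraries allow.

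Each chromosome gave a similar ratio by itself, with a mean of 0.33 ± 0.039 for chromosome 13 and 0.321 ± 0.046 for chromosome 18 (SD, n = 4 libraries). They were the 2 autosomes of lowest density in each of the 4 lists. Chromosome 13 had 5.18 and 1.82 peaks per megabase in Dox replicates 1 and 2, against 1.54 and 3.04 in PBS replicates 1 and 2. Chromosome 18 had 5.53 and 2.00 peaks per megabase in Dox replicates 1 and 2, against 1.11 and 3.19 in PBS replicates 1 and 2. Which of them was lower changed with the library, chromosome 18 in PBS replicate 1 and chromosome 13 in the others. The mean ratios of the 2 chromosomes differed by less than the spread between libraries. In PBS replicate 1 the ratios were further apart, at 0.367 for chromosome 13 and 0.266 for chromosome 18. Chromosome 4, the next by coding genes per megabase, had 6.0 and 2.38 peaks per megabase in Dox replicates 1 and 2, against 1.90 and 3.62 in PBS replicates 1 and 2. Chromosome 8 was above it in Dox replicate 1, at 8.14, and below it in the other 3 lists, at 2.33 in Dox replicate 2, against 1.73 and 3.43 in PBS replicates 1 and 2. Gene-dense chromosome 19 lay at the other end, with 67.5 and 22.1 peaks per megabase in Dox replicates 1 and 2, against 15.5 and 28.1 in PBS replicates 1 and 2.

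A pair of simple baselines was set beside the share of autosomal peaks on the 2 chromosomes. They hold 6.33% of sequenced autosomal bases and 3.18% of autosomal protein-coding genes, as counted in the RefSeq annotation of a later build. Their share of autosomal peaks was 2.04% in Dox replicate 1 (95% Wilson interval 1.91% to 2.17%) and 2.03% in Dox replicate 2 (1.82% to 2.27%). It was 2.14% in PBS replicate 1 (1.88% to 2.43%) and 2.43% in PBS replicate 2 (2.23% to 2.64%). All 4 intervals lay below both baselines, so peaks were fewer than in proportion to bases or to genes. The intervals describe counting error alone, as if each peak were independent, which neighbouring peaks are not.

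The low density ran with gene density across the genome. Coding genes per megabase numbered 3.54 on chromosome 13 and 3.62 on chromosome 18, the 2 lowest values, then 4.10 on chromosome 4, and 26.0 on chromosome 19. Spearman's rho between coding genes per megabase and peaks per megabase over the 22 autosomes was 0.924 and 0.890 in Dox replicates 1 and 2, against 0.894 and 0.880 in PBS replicates 1 and 2. Over the 20 autosomes without chromosomes 13 and 18 it was 0.899 and 0.854 in the Dox libraries, against 0.860 and 0.841 in the PBS libraries. These are descriptions, since the autosomes of a list share 1 library and differ in base composition as well as in genes.

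**Figure D1:**
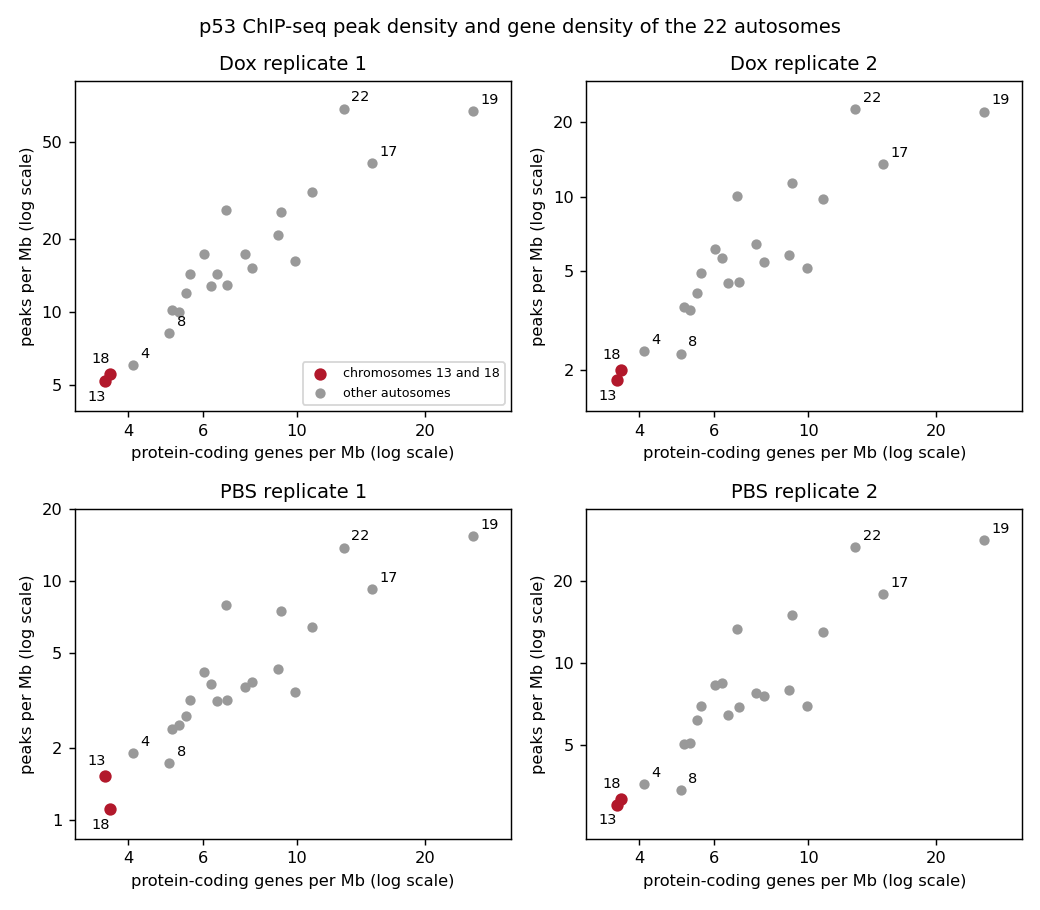
Peaks per megabase (vertical, log scale) against protein-coding genes per megabase (horizontal, log scale) for the 22 autosomes, 1 panel per library, with chromosomes 13 and 18 in red and 5 other autosomes numbered. Chromosomes 13 and 18 sit at the lower left corner in all 4 panels, between 1.11 and 5.53 peaks per megabase, and swap places in PBS replicate 1.

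Counted per coding gene, the chromosomes were near the low end of the autosomes but not always lowest. Chromosome 13, with 338 coding genes, had 1.46 and 0.512 peaks per gene in Dox replicates 1 and 2, against 0.432 and 0.855 in PBS replicates 1 and 2. Chromosome 18, with 270, had 1.51 and 0.544 in Dox replicates 1 and 2, against 0.304 and 0.870 in PBS replicates 1 and 2. From low to high they took places 2, 2, 4 and 3 of 22 (chromosome 13) and 3, 4, 1 and 5 of 22 (chromosome 18) in Dox replicates 1 and 2 and PBS replicates 1 and 2.

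Along the chromosomes the 2 differed in how their peaks were spread. Each was divided into windows of 1 Mb, and the merged sites of the 4 libraries were counted. Chromosome 13 had sites in 88 of 96 windows with sequence, a median of 5 per window and at most 35. The ratio of variance to mean of its window counts, 7.75, was the lowest of the 22 autosomes, and the median distance between neighbouring sites, 38.4 kb, was the largest. Chromosome 18 had sites in 61 of 78 windows, a median of 3.5 per window, which was the lowest of the 22, and at most 60. The 10% of its windows with most sites held 52.6% of its sites, the highest share of the 22 autosomes. Chromosomes 4, 8 and 5, the next by coding genes per megabase, were close, at 49.5%, 49.4% and 48.9%. For chromosome 13 the 10% of its own windows with most sites held 33.2%. Neighbouring sites less than 5 kb apart were rarest on these 2 chromosomes, at 24.6% of spacings on chromosome 13 and 27.3% on chromosome 18. Where sites were dense, such short spacings are more frequent by number alone, so this value and the median distance are not independent of the density. The ratio of variance to mean can also change with the number of sites, and chromosome 13 had the fewest per megabase, 7.79. Chromosomes 4 and 18, at 8.45 and 8.57 sites per megabase, had ratios of 24.6 and 20.0.

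The fullest windows were in the upper part of the autosomal range but not at its top. On chromosome 13 the 3 windows with most sites were chr13:45000001-46000000 with 35, chr13:27000001-28000000 with 31 and chr13:100000001-101000000 with 30. These counts stood at percentiles 81.3, 79.1 and 78.5 of all autosomal windows. On chromosome 18 the 3 were chr18:34000001-35000000 with 60 sites, chr18:21000001-22000000 with 53 and chr18:19000001-20000000 with 48, at percentiles 90.3, 88.6 and 87.3. The first of these held 45 and 8 peaks in Dox replicates 1 and 2, against 5 and 19 in PBS replicates 1 and 2. That is 11.1% and 5.44% of the chromosome's peaks in Dox replicates 1 and 2, against 6.10% and 8.09% in PBS replicates 1 and 2, so its weight differed more between the Dox libraries than between the conditions.

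Most of the crowding on chromosome 18 lay in 2 stretches of the long arm, picked after their counts were seen and so given with no test. The stretch chr18:19000001-22000000 held 121 sites in 3 windows and chr18:29000001-36000000 held 230 in 7, out of 631 sites in 78 windows. The longer one held 32.9% and 41.5% of the chromosome's peaks in Dox replicates 1 and 2, against 41.5% and 38.3% in PBS replicates 1 and 2. The shorter one held 18.2% and 23.8% in Dox replicates 1 and 2, against 19.5% and 17.4% in PBS replicates 1 and 2. The ranges of the conditions overlapped in both stretches. On chromosome 13 the stretch chr13:27000001-32000000 was the fullest, with 108 sites and 15.2% and 16.8% of the chromosome's peaks in Dox replicates 1 and 2, against 19.2% and 14.2% in PBS replicates 1 and 2.

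Long stretches held almost nothing. The longest runs of windows without a site in any library were chr18:62000001-66000000, 4 windows, and chr18:39000001-42000000, 3 windows. On chromosome 13 the longest was chr13:56000001-58000000, 2 windows. Chromosome 18 had 17 empty windows of 78, or 21.8%, the second highest share of the 22 autosomes, and some of them lie in the centromeric gap of hg19, where no peak can be called. The wider stretch chr18:48000001-72000000 held 46 sites in 24 windows, and its peaks numbered 35 and 8 in Dox replicates 1 and 2, against 6 and 15 in PBS replicates 1 and 2.

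In the sparse middle of chromosome 13, PBS replicate 2 stood apart. Over chr13:54000001-72000000, also picked after its counts were seen, there were 39 sites in 18 windows. Peaks there numbered 17 and 3 in Dox replicates 1 and 2, against 3 and 24 in PBS replicates 1 and 2. As a share of the chromosome's peaks that is 3.45% and 1.73% in Dox replicates 1 and 2, against 2.05% and 8.30% in PBS replicates 1 and 2. PBS replicate 2 had the most peaks of the 4 libraries in this stretch, although its whole list was shorter than that of Dox replicate 1.

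Window counts of the libraries followed each other. Spearman's rho between pairs of libraries lay between 0.699 and 0.855 over the 96 windows of chromosome 13 and between 0.646 and 0.791 over the 78 windows of chromosome 18, as a description, since windows share the sequence that can be mapped. The lowest value on chromosome 13 was that of the 2 PBS libraries with each other. The highest on chromosome 18, 0.791, was that of Dox replicate 1 with PBS replicate 2, the 2 longest lists. Pairs within a condition were thus not the most alike on either chromosome.

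**Figure D2:**
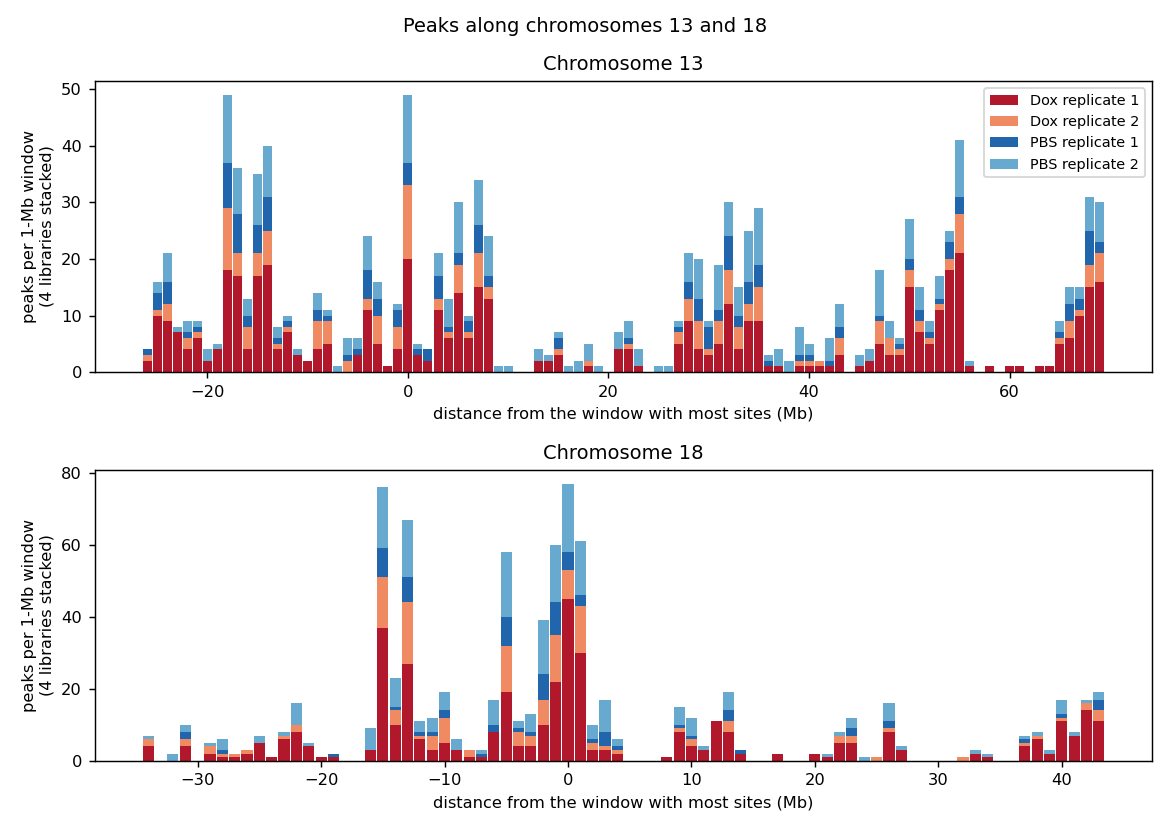
Peaks per 1-Mb window along chromosome 13 (top) and chromosome 18 (bottom), against the distance in Mb from the window with most sites, with the 4 libraries stacked. Chromosome 18 shows 2 crowded stretches and long empty ones, whereas chromosome 13 shows many low clusters and a sparse middle in which PBS replicate 2 gives more peaks than any other library.

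Peaks were narrower on chromosomes 13 and 18 in every library. Their median width was 272 and 273 bp in Dox replicates 1 and 2, against 260 and 265 bp in PBS replicates 1 and 2. Elsewhere on the autosomes it was 283 and 288 bp in the Dox libraries, against 281 bp in each PBS library. The difference averaged -15.8 ± 4.11 bp (SD, n = 4 libraries) and was negative in 4 of 4, with p = 0.13 in a two-sided exact sign-flip test, the smallest it can give. From narrow to wide, chromosome 13 took places 2 and 2 of the 22 autosomes in the Dox libraries, against 2 and 1 in the PBS libraries. Chromosome 18 took places 4 and 3, against 1 and 2. Chromosome 3 was narrower than both in Dox replicates 1 and 2, at 264 and 270 bp. The lower end of the widths is fixed by the caller, and the narrowest peak had 193, 203, 188 and 193 bp in Dox replicates 1 and 2 and PBS replicates 1 and 2 on both sets of chromosomes.

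The difference was larger among the strong peaks. Ranks were read within a list, by p, as percentiles with 100 for the smallest p. Among peaks below percentile 50 the medians differed by -7 and -12 bp in Dox replicates 1 and 2, and by -16 and -17 bp in PBS replicates 1 and 2. Among the top 10% the median width on chromosomes 13 and 18 was 450.5 and 353.5 bp in Dox replicates 1 and 2, over 86 and 28 peaks, and 344.5 and 414 bp in PBS replicates 1 and 2, over 14 and 38 peaks. The same group of the other autosomes measured 548 and 466 bp in Dox replicates 1 and 2, and 474 and 490 bp in PBS replicates 1 and 2. The difference in the top 10% lay between -129.5 and -76 bp over the 4 libraries. Among peaks with q of at most 0.05 the mean difference was -166 bp, though PBS replicate 1 had only 3 such peaks there.

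Wide peaks were rare on the 2 chromosomes. Peaks of at least 1 kb numbered 12 and 2 in Dox replicates 1 and 2, against 1 and 4 in PBS replicates 1 and 2. They made up 1.33% and 0.625% of the Dox peaks on chromosomes 13 and 18, against 0.439% and 0.763% of the PBS peaks there. For the other autosomes the shares were 2.31% and 1.79% in the Dox libraries, against 1.76% and 1.97% in the PBS libraries. The share was lower on chromosomes 13 and 18 in 4 of 4 libraries, but the Wilson intervals of the 2 sets overlapped within each library, so with these few peaks its size is uncertain.

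The widest member lay at 1 site on chromosome 13. It was called at chr13:36335378-36337542 in Dox replicate 1 with 2165 bp and a fold of 3.84, and at chr13:36335597-36336718 in Dox replicate 2 with 1122 bp and a fold of 3.11. In PBS replicate 2 it was called at chr13:36335529-36337921 with 2393 bp and a fold of 4.41. It was the widest peak of chromosome 13 in those 3 libraries and held a peak in all 4, whereas in PBS replicate 1 the widest was at chr13:95201304-95202413 with 1110 bp. On chromosome 18 the widest peak was at a different site in each library. It measured 1183 and 883 bp in Dox replicates 1 and 2, at chr18:60865438-60866620 and chr18:23670332-23671214, against 936 and 925 bp in PBS replicates 1 and 2, at chr18:47013470-47014405 and chr18:33552107-33553031.

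**Figure D3:**
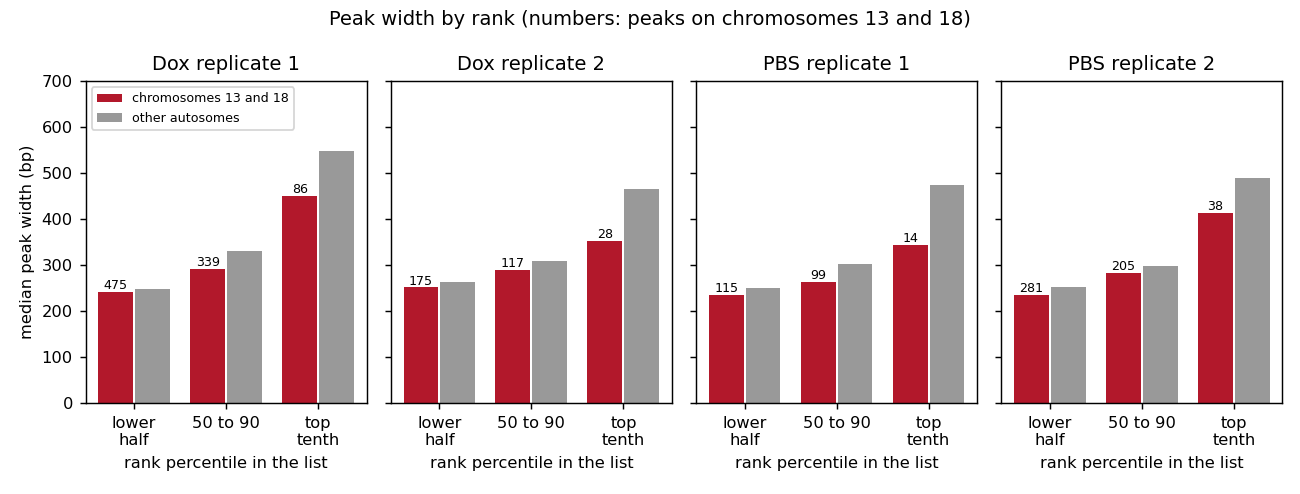
Median peak width in bp (vertical, from 0) by rank percentile group within each list, with chromosomes 13 and 18 in red at the left of each pair and the other autosomes in grey, 1 panel per library; numbers above red bars are peaks. The bars are close in the lower group and part in the top group, where the difference, chromosomes 13 and 18 minus the others, is -129.5 to -76 bp.

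In rank by p the mean difference of these chromosomes from the rest was smaller than its spread between libraries. Their median percentile was 46.1 in each Dox library, against 49.8 and 47.6 in PBS replicates 1 and 2. The other autosomes had 46.1 in each Dox library, against 50 and 50.2 in PBS replicates 1 and 2. The difference averaged -0.70 ± 1.26 percentile points (SD, n = 4 libraries; two-sided exact sign-flip p = 0.5), and -0.07 points without PBS replicate 2, the library with the largest difference. Ranked by fold enrichment in place of p it averaged -4.92 points (exact sign-flip p = 0.25). Many peaks of a list have the same p, so medians fall on shared steps, and the 2 Dox differences of 0 are such ties. With these 2 ties the sign-flip test on rank by p could give no p below 0.5, so it cannot decide.

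The very top of the lists held few of them. Each list had 1 peak from chromosome 13 and 0 from chromosome 18 among its first 100 peaks, of which 94 to 96 were autosomal. That is 1.06% of these in both Dox libraries and PBS replicate 2 (interval 0.188% to 5.78%), and 1.04% in PBS replicate 1 (0.184% to 5.67%). These intervals hold the share over the whole list, and the peak was at the same site in every list. Ranks 1 to 1000, with all peaks tied at a rank kept, held 945 and 1109 autosomal peaks in Dox replicates 1 and 2, against 940 and 967 in PBS replicates 1 and 2. Among these the 2 chromosomes had 15 and 20 peaks in Dox replicates 1 and 2, against 14 and 19 in PBS replicates 1 and 2. As shares of the autosomal peaks there these are 1.59% and 1.80% in the Dox libraries, against 1.49% and 1.96% in the PBS libraries, all with intervals that hold the share over the whole list. At the weak end the share was 2.65% in PBS replicate 2 beyond rank 10000 (interval 2.38% to 2.95%), against 1.73% past rank 1000 up to rank 5000 (1.36% to 2.19%). In Dox replicate 1 the shares over the same ranks were 2.03% and 2.09%, so this gradient was not seen in the longest list. Dox replicate 2 had 2.37% (2.01% to 2.79%) and 1.79% (1.41% to 2.28%). PBS replicate 1 had 3.22% (2.30% to 4.49%) and 2.23% (1.83% to 2.72%). Both of these lists were higher at the weak end, but with overlapping intervals.

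Strong folds were lower at the top. The highest fold on chromosomes 13 and 18 was 9.49 and 11.5 in Dox replicates 1 and 2, against 6.71 and 11.2 in PBS replicates 1 and 2. Elsewhere the highest was 26.9 and 22.4 in the Dox libraries, against 20 and 25.6 in the PBS libraries. A maximum over more peaks tends to be higher by number alone. The median folds were 2.47 and 2.70 in Dox replicates 1 and 2 and 2.60 and 2.73 in PBS replicates 1 and 2 on chromosomes 13 and 18. They were 2.47 and 2.78 in the Dox libraries and 2.64 and 2.86 in the PBS libraries on the other autosomes.

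Peaks that reached q of at most 0.05 were a small part of the members. They numbered 34 and 12 in Dox replicates 1 and 2, against 3 and 28 in PBS replicates 1 and 2. That is 3.78% and 3.75% of the Dox peaks on the 2 chromosomes, against 1.32% and 5.34% of the PBS peaks there. Over all autosomes the shares called were 3.61% and 4.75% in the Dox lists, against 2.47% and 5.94% in the PBS lists, and the 2 chromosomes together were below these in 3 of 4 libraries. The difference from the other autosomes averaged -0.66 ± 0.60 percentage points (SD, n = 4 libraries; two-sided exact sign-flip p = 0.25). Counted apart, chromosome 13 gave 20 and 9 such peaks in Dox replicates 1 and 2, against 3 and 19 in PBS replicates 1 and 2, and chromosome 18 gave 14 and 3, against 0 and 9. The mean difference was 0.26 points for chromosome 13 alone. It was -1.88 points for chromosome 18 alone, negative in 4 of 4 libraries (two-sided exact sign-flip p = 0.13, the smallest possible), so the 2 chromosomes lay on different sides of 0, and the difference between them was not tested. A count of 0 among the 82 peaks of chromosome 18 in PBS replicate 1 allows a share of up to 3.66% (3 counts of the total), with a 95% Wilson upper bound of 4.48%.

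Single sites recurred in all libraries. The leading one was on chromosome 13 at chr13:51103316-51103974, with a fold of 9.49 and 11.5 in Dox replicates 1 and 2, against 6.71 and 11.2 in PBS replicates 1 and 2. It was the highest-ranked member of every list, at ranks 63 and 31 of the Dox lists and 66 and 59 of the PBS lists, and its 4 summits lay within 30 bp of each other. The next was at chr13:114540052-114540749, with a fold of 7.98 and 8.5 in the Dox libraries, against 5.48 and 7.54 in the PBS libraries, and summits within 27 bp. These were the only 2 sites with q of at most 0.05 in all 4 libraries. At chr13:48640454-48641069 the fold was 6.61 and 8.11 in the Dox libraries, against 4.98 and 6.84 in the PBS libraries, and q passed in 3.

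The other leading sites of chromosome 13 had smaller folds. They were at chr13:52026584-52027331, with a fold of 6.46 and 4.44 in Dox replicates 1 and 2, against 4.32 and 5.67 in PBS replicates 1 and 2, and at chr13:77900190-77900663, with 4.36 and 4.57 against 3.37 and 4.94. The sixth, chr13:31416292-31418262, was 1971 bp long and joined up to 3 peaks of a library, with a highest fold of 4.50 and 4.09 in the Dox libraries, against 3.38 and 5.13 in the PBS libraries. In each of the 6 sites the lowest fold was that of PBS replicate 1, the shortest list. The Dox and PBS folds overlapped in 5 of the 6, and since each list has its own scale the folds are not compared between conditions.

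On chromosome 18 the leading sites were weaker. The site chr18:6920138-6920547 had a fold of 4.10 and 4.25 in Dox replicates 1 and 2, against 4.73 and 4.76 in PBS replicates 1 and 2. The site chr18:37795926-37796273 had the highest folds of the chromosome in the Dox libraries and PBS replicate 2, 6.02 and 5.71 in the Dox libraries, against 3.92 and 5.15 in the PBS libraries. Its summits lay within 26 bp and q passed in 3 libraries. The remaining 4 were at chr18:33077423-33078117, chr18:47013470-47014596, chr18:34863883-34864356 and chr18:31158968-31159459, with folds of 3.44 to 4.84 in the Dox libraries, against 2.94 to 4.76 in the PBS libraries. The Dox and PBS folds overlapped at each of these 4, and PBS replicate 1 was not the lowest at all 6 sites of the chromosome.

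**Figure D4:**
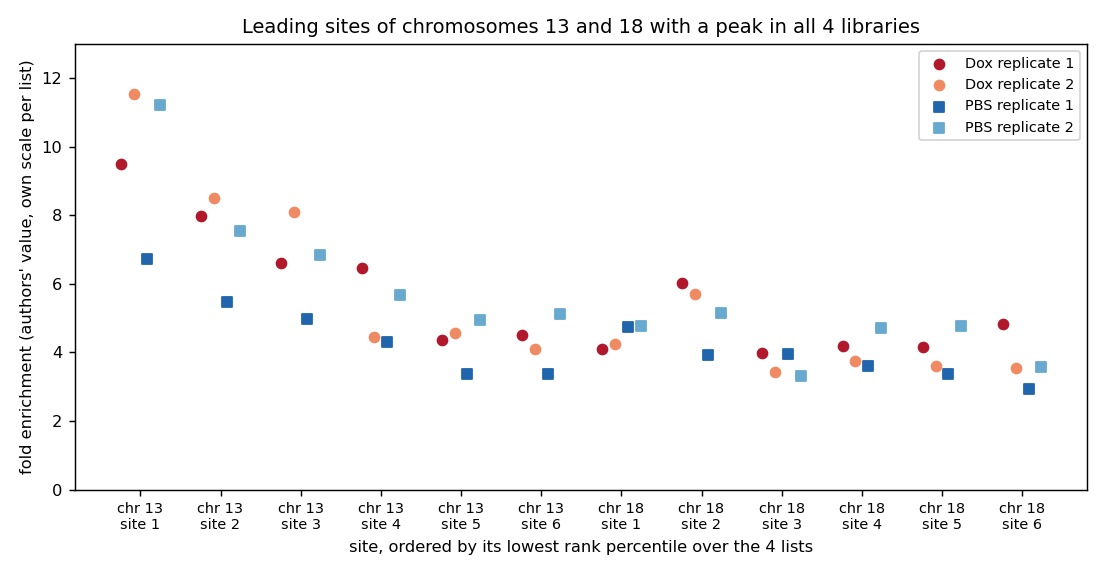
Fold enrichment (vertical, the authors' value, on its own scale in each list) of the 6 leading sites of chromosome 13 and the 6 of chromosome 18 with a peak in all 4 libraries, Dox libraries as circles at the left and PBS libraries as squares at the right of each site. The first site of chromosome 13 reaches 6.71 to 11.5, and sites of chromosome 18 stay between 2.94 and 6.02.

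Recurrence over the 4 libraries was limited. Of the 1372 sites, 1049 (76.5%) had a peak in 1 library, 173 (12.6%) in 2, 75 (5.47%) in 3 and 75 (5.47%) in 4. The other autosomes had 72.3% in 1 library, 14.1% in 2, 7.55% in 3 and 6.02% in 4. Over all autosomes 6.0% of sites had a peak in all 4. The difference in sites with all 4, chromosomes 13 and 18 minus the others, was -0.55 percentage points with a 95% interval of -1.65 to 0.80, so for this class a difference was not detectable at this number of sites. Elsewhere in the distribution the Wilson intervals were apart for sites in 1 and in 3 libraries. For sites in 1 library they were 74.1% to 78.6% on chromosomes 13 and 18, against 71.9% to 72.7% on the others, and for sites in 3 libraries 4.38% to 6.80%, against 7.34% to 7.76%. Without PBS replicate 1 the difference in sites of all 3 remaining libraries was -1.97 points (interval -3.35 to -0.35), and without Dox replicate 1 it was -1.87 (-3.89 to 0.54). Chromosome 13 had 48 such sites (6.48% of its sites) and chromosome 18 had 27 (4.28%, the lowest of the 22 autosomes). By itself, chromosome 13 differed from the others by 0.46 points (interval -1.11 to 2.48) and chromosome 18 by -1.74 points (-3.07 to 0.15). Fewer peaks on a chromosome also leave fewer chance overlaps, and the part of that was not tested.

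The sites in all 4 libraries were shorter than elsewhere. Their median length was 698 bp, against 826 bp on the other autosomes. They reached q of at most 0.05 in at least 1 library at 30 of 75 sites (40%), against 43.3% on the other autosomes, and in all 4 libraries at 2 of 75 (2.67%), against 5.35%. Whether a peak recurred went with its rank on both sets of chromosomes. Among the top 10% of their list, 50% and 71.4% of the peaks of Dox replicates 1 and 2 on chromosomes 13 and 18 were in sites of all 4 libraries, against 92.9% and 63.2% in PBS replicates 1 and 2. Elsewhere these were 52.8% and 75% in the Dox libraries, against 86% and 65.8% in the PBS libraries, each within the Wilson interval of the value on chromosomes 13 and 18. Between percentiles 50 and 90 the PBS replicate 2 share was 15.6% (interval 11.3% to 21.2%) on chromosomes 13 and 18, against 22.3% (21.4% to 23.2%) on the others, while the other libraries had overlapping intervals.

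The clearest departure was in the peaks of PBS replicate 2. Of its peaks on chromosomes 13 and 18, 51.9% lay at sites of no other library (Wilson interval 47.6% to 56.2%), against 36.0% on the other autosomes (35.4% to 36.7%). Chromosomes 18 (53.2%) and 13 (50.9%) were the highest of the 22 autosomes in this library. Sites with a peak in PBS replicate 2 alone were 272, or 19.8% of sites (17.8% to 22%), against 12.9% on the other autosomes and 13% over all autosomes. In the same direction but smaller, unshared peaks made up 68.4% and 33.4% of Dox replicates 1 and 2 on the 2 chromosomes and 23.7% of PBS replicate 1. Elsewhere they made up 66.4% and 28.4% of Dox replicates 1 and 2 and 18.5% of PBS replicate 1.

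The difference was also present at equal list length. With every list cut to its 11304 best peaks, 43.8% of the PBS replicate 2 peaks on chromosomes 13 and 18 were unshared, against 33.9% on the other autosomes. For PBS replicate 1 the values were 38.6% and 34.3% in the same order, and for Dox replicates 1 and 2 they were 36.3% and 30.4% on chromosomes 13 and 18, against 35.2% and 37.7% on the others. In Dox replicate 2 alone the unshared share was lower on chromosomes 13 and 18 than on the others at equal list length. It rests on 191 peaks of 1 library there, and the difference was not tested.

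**Figure D5:**
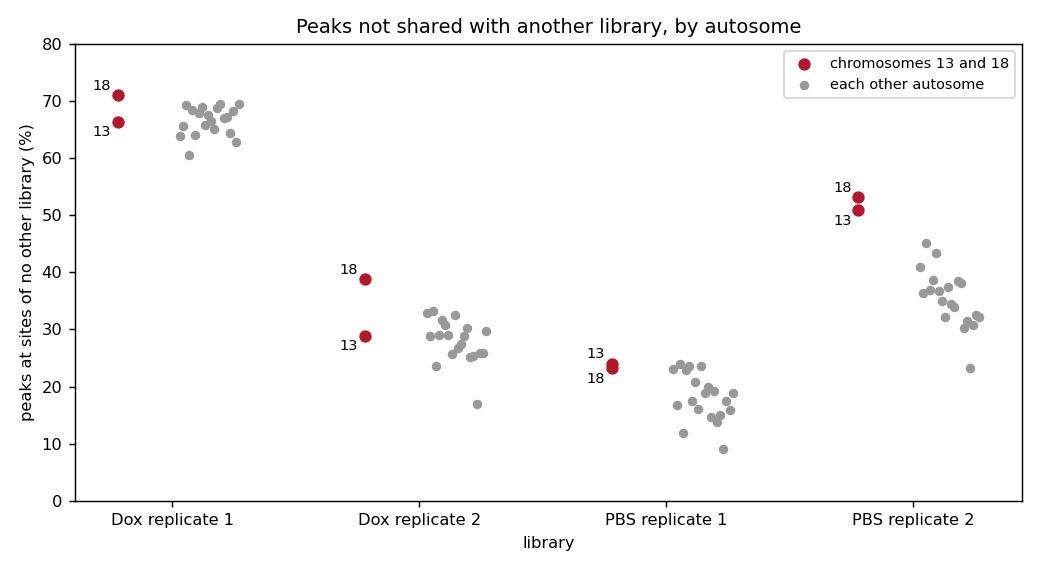
Percent of a library's peaks at sites of no other library (vertical), for chromosomes 13 and 18 (red, left of each library) and each of the 20 other autosomes (grey, right). In PBS replicate 2 the 2 red points, at 50.9% and 53.2%, lie above all grey ones, and in the other libraries at least 1 red point lies among the grey ones or next to them.

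The comparison of doxorubicin with PBS gave little on these chromosomes. Peak numbers averaged 610 ± 410 in Dox and 376 ± 209 in PBS libraries (SD, n = 2 each), a log2 difference of 0.63 with a two-sided exact permutation p of 0.667. Within replicate number 1 there were 3.95 times as many peaks in Dox as in PBS, and within number 2 there were 0.611 times as many, so the direction turned with the number. Without Dox replicate 1 the log2 difference was -0.11. The share of autosomal peaks that lay on chromosomes 13 and 18 was 2.04% and 2.03% in Dox replicates 1 and 2, against 2.14% and 2.43% in PBS replicates 1 and 2. The difference of means was -0.25 percentage points and the groups did not overlap, but 2 libraries against 2 allow no p below 0.33, and it was 0.333. The difference was -0.10 points without PBS replicate 2 and -0.39 points without PBS replicate 1, so its size moved with the PBS library left out. Of the 22 autosomes 22.7% were lower in both Dox than in both PBS libraries, and another 22.7% were higher in both.

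The lower share came from chromosome 13, which was 1 of the 5 autosomes lower in both Dox libraries. It held 1.11% and 1.10% of autosomal peaks in Dox replicates 1 and 2, against 1.37% and 1.34% in PBS replicates 1 and 2, with no overlap. Chromosome 18 held 0.920% and 0.934% in Dox replicates 1 and 2, against 0.769% and 1.09% in PBS replicates 1 and 2, and the groups overlapped. Median width on both chromosomes together was 272 and 273 bp in Dox replicates 1 and 2, against 260 and 265 bp in PBS replicates 1 and 2 (exact permutation p = 0.333, the smallest possible). The other autosomes went the same way, with 283 and 288 bp in the Dox libraries, against 281 bp in each PBS library. The narrowest width in the lists differed too, as given above, and its part in this was not tested.

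Sites found in both libraries of 1 condition and neither of the other were few. Both Dox and no PBS library had a peak at 35 sites, or 2.55% of sites, against 3.13% on the other autosomes and 3.11% over all autosomes. Both PBS and no Dox library had a peak at 9 sites, or 0.656%, against 0.944% on the other autosomes and 0.938% over all. Both shares were close to the background. For comparison, 55 sites had a peak in Dox replicate 1 and PBS replicate 2 alone, more than in the Dox pair. That is 4.01% of sites, against 4.99% on the other autosomes, where this share was also above the 3.13% of the Dox pair. No peak at the 6 sites named next reached q of at most 0.05.

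The 3 leading sites of the Dox pair were all on chromosome 18, in or beside its crowded stretch. They were chr18:29673001-29673340, with a fold of 3.45 and 3.44 in Dox replicates 1 and 2, chr18:29523366-29523760, with 3.25 and 3.18, and chr18:35358385-35359007, with 3.06 and 3.38. The 3 leading sites of the PBS pair were all on chromosome 13, which held 5 of the 9 sites of that pair. They were chr13:27557119-27557529, with a fold of 2.66 and 3.34 in PBS replicates 1 and 2, chr13:48669098-48669495, with 2.62 and 2.86, and chr13:40176537-40176858, with 2.27 and 2.63. The lists do not give the signal of a library at a site where it has no peak.

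The authors' tables of peak pairs matched between the replicates of a condition give an irreproducible discovery rate (IDR) for each pair. In Dox, 64 of 155 pairs on chromosomes 13 and 18 had an IDR of at most 0.05, or 41.3% (Wilson interval 33.8% to 49.2%), against 26.9% on the other autosomes and 27.2% over all. In PBS it was 14 of 112, or 12.5% (7.59% to 19.9%), against 14.7% on the other autosomes and 14.7% over all. In the Dox table the chromosomes took places 2 and 3 from the top of the 22 autosomes, behind chromosome 4, and in the PBS table chromosome 13 took place 5 and chromosome 18 place 22. The p-values of the Dox pairs were close on both sets, with a median −log10 p of 3.23 and 2.96 in replicates 1 and 2 on chromosomes 13 and 18, against 3.12 and 2.83 on the others. The IDR of pairs with the same 2 p-values was not the same. The commonest combination in the Dox table, 230 pairs, had an IDR between 0.151 and 0.579, and 5121 of the 8304 autosomal Dox pairs shared both p-values with another pair. The part of these ties in the Dox share was not tested.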

How the data were processed

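Per the submitters' processing notes, reads were handled with BWA and MACS2 on hg19, and the sources used here give no versions or filters. From the authors came a deposited peak list for each ChIP library by itself, with p under 0.05 stated in the peak names. Each deposited peak has a fold enrichment (a ratio over local background), a −log10 p-value and a −log10 q-value. The deposited tables of matched pairs give −log10 p-values of both peaks and, per the file headers, an IDR, a q-value for irreproducibility, with a local IDR, a fraction not used.

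The members and the lists of named sites, windows and comparison chromosomes were chosen with earlier results of these data known. Sites were merged at 1 bp overlap. The first and last 500 kb of every chromosome were left out of both sets. Density used the sequenced bases of hg19, entered by hand from general knowledge of that build, since no genome of it was used here. Coding genes per chromosome were counted in the RefSeq annotation of GRCh38 and used as numbers only. Named sites were, per chromosome, the 6 present in all 4 libraries with the highest lowest-of-4 rank percentile, and the 3 best exclusive to each pair, with the 3 fullest windows, the longest empty runs and the widest peak per library. Stretches of windows were picked after counts were seen.

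Each library gave 1 value, chromosomes 13 and 18 minus or over the other autosomes, tested with a two-sided exact sign-flip test over 4 libraries. Dox and PBS were compared by two-sided exact permutation, 2 against 2. The p-values reflect only the spread over these libraries, which includes passage. Wilson intervals at 95% cover counting error only. Depth is not given, so no value is scaled to it. Replicate numbers were checked for pairing over 536 sites of the 11304 best peaks of each list. The difference between replicates in Dox correlated with that in PBS at r = 0.088. A correlation of called peaks cannot decide whether libraries of a passage are paired. The main comparison did not take the numbers as pairs, and an alternative took them as a block. Steps were tested on simulated lists. Alternatives were the margin, length, overlap, threshold, rank measure, list length, reference chromosomes and each library left out. The work used scipy 1.17.1 and pandas 2.3.3 on numpy 2.4.6, with figures by matplotlib 3.10.9, all under Python 3.11.15.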

Additional observations from a re-analysis of the deposited data

Results flagged for a closer look

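The number of peaks on chromosomes 13 and 18 moved in opposite directions with doxorubicin in the 2 replicate numbers. The log2 difference, Dox minus PBS, was 1.98 in replicate number 1 (900 peaks in Dox against 228 in PBS) and -0.71 in number 2 (320 in Dox against 524 in PBS). Each value rests on 1 library per condition, and the difference between them was not tested. Whole lists differed the same way, with 46658 peaks in Dox against 11304 in PBS for number 1, and 16642 in Dox against 22978 in PBS for number 2.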

How the results depend on the processing

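Of 96 values under alternatives, 6 had the opposite sign to the reported one, each given below. The density ratio stayed below 1 in all of them, from 0.266 with peaks of q at most 0.05 to 0.379 without chromosomes 17, 19 and 22, and from 0.313 to 0.333 with 1 library left out. The width difference was negative in all, from -166 bp (q at most 0.05) to -12.6 bp. The share reaching q differed by 0.26 points for chromosome 13 alone. The Dox minus PBS share was 0.21 points with peaks of q at most 0.05, and its log2 number was -0.12 with the same number of top peaks per list, and -0.11 to 1.38 with 1 library left out, the lowest without Dox replicate 1. The difference in sites in all 4 libraries was -4.56 points for q at most 0.05, -1.74 for chromosome 18 alone, 0.46 for chromosome 13 alone, 1.51 of sites in at least 2 libraries (added after seeing the data), and -1.97 to -0.26 with 1 library left out. Equal list length fell inside a tie in Dox replicate 1, where 545 of 1387 tied peaks were kept, 14 of 23 on chromosomes 13 and 18. Tied peaks were taken in order of chromosome name sorted as text, then position, so those kept were not an even draw over the chromosomes. Sites of the Dox pair numbered 0 for q at most 0.05 and 15 with the same number of top peaks, and 44 to 652 with 1 library left out. Sites of the PBS pair numbered 0 for q at most 0.05, and 17 to 283 with 1 library left out, where fewer libraries have to hold or lack a peak. With the replicate number as a block the share difference was -0.25 points (exact sign-flip p = 0.5) and the log2 number difference 0.63 (exact sign-flip p = 1). With 2 blocks this test allows no p below 0.5, so the block could not have changed a call. The causes of these changes were not tested. With 4 libraries, no test here could fall below 0.13.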
